A study of Homo sapiens with 6 samples.

Results

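The 9 genes described here encode transcription factors known as drivers of the epithelial-mesenchymal transition (EMT). They are ZEB1, ZEB2, SNAI1, SNAI2, SNAI3, TWIST1, TWIST2, PRRX1 and TCF4. They were taken by gene symbol from the 52401 rows of each of 2 deposited tables. That rule uses no measured value, but the genes and the lists below were chosen with earlier results of these data known. Of the 9 genes, 8 had at least 1 read, the same 8 had an adjusted p in the DESeq table (the authors' deposited table of group means), and 7 entered a limma fit of single libraries.

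RNA was sequenced from F1F2 cells and mCherry cells, with 3 samples per group. Both are stable lines of MCF10A, a non-tumorigenic human mammary epithelial cell line, and each group is a single line. F1F2 cells received 2 retroviral vectors, for Flotillin1-HA and Flotillin2-mCherry, and were selected with puromycin and hygromycin. mCherry cells received 1 retroviral vector, for mCherry alone, and were selected with puromycin. Both lines thus share the retroviral infection, puromycin and an mCherry moiety, and both grew in DMEM/F-12 with horse serum, insulin, EGF, hydrocortisone and cholera toxin. Flotillin level, vector number and hygromycin cannot be told apart. FLOT1 itself averaged 16771 ± 2432 normalized counts in F1F2 libraries and 1474 ± 380 in mCherry libraries (SD, n = 3 each).

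ZEB1 and ZEB2 are zinc-finger repressors, and SNAI1, SNAI2 and SNAI3 form the Snail family of zinc-finger repressors. Both families bind E-boxes, short DNA motifs found in the promoters of epithelial genes such as CDH1, the gene of E-cadherin. TWIST1, TWIST2 and TCF4 are basic helix-loop-helix (bHLH) proteins that bind DNA in pairs, often with an E protein, the class to which TCF4 belongs. PRRX1 is a homeobox factor. The miR-200 family and miR-205 are epithelial microRNAs that repress ZEB1 and ZEB2 through their 3′ untranslated regions (UTRs), and the ZEB proteins repress the miR-200 genes in return.

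The microRNA sequences are shown because their seeds, bases 2 to 8, set which transcripts they can pair with. The sequences are from RefSeq (GRCh38.p14), 5′ to 3′, with the seed in capitals. The first 3 share the seed AAUACUG, the next 2 share AACACUG, and miR-205 has CCUUCAU. The microRNAs themselves were not measured here.
hsa-miR-200b-3p: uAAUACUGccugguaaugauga
hsa-miR-200c-3p: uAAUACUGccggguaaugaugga
hsa-miR-429: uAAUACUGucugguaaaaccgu
hsa-miR-200a-3p: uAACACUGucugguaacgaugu
hsa-miR-141-3p: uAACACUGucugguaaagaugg
hsa-miR-205-5p: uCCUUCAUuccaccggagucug

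In the longest annotated 3′ UTR of each gene (GENCODE v29, GRCh38), ZEB1 held 6 matches to the miR-200b, miR-200c and miR-429 seed within 2549 bases, and ZEB2 held 5 within 5370 bases. Among 19146 genes with a 3′ UTR, 16.0% had at least 1 such match, 7 genes (0.0366%) had at least 5 and 3 genes (0.0157%) had at least 6. For the miR-200a and miR-141 seed, ZEB1 held 3 matches and ZEB2 held 4, against 1.02% of genes with at least 3 and 0.303% with at least 4. ZEB1 held 1 match to the miR-205 seed, where 11.6% of genes held at least 1, and ZEB2 held 0. TCF4 held 1 match to the first seed and 2 to the second within 5704 bases, and SNAI2 held 1 match to the first within 1203 bases. No match to any of these seeds was found in the longest 3′ UTR of SNAI1, SNAI3, TWIST1, TWIST2 or PRRX1. The TWIST2 sequence searched is that of the protein-coding gene, which the deposited rows name AC149644.1. A match is a description of the letters, not a measured site. The first match to the miR-200b seed in each ZEB gene is printed, on the transcribed strand with the match in capitals.
ZEB1, chr10:31527619-31527646, plus strand: ttgttttatcttatCAGTATTatcactc
ZEB2, chr2:144389046-144389073, minus strand: gcactaccatacatCAGTATTtttatta

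Promoter windows running from 250 bases before to 50 bases after a RefSeq start site (GRCh38.p14) were searched for CACCTG or CAGGTG, the E-box that ZEB and SNAI factors bind. These motifs are each other's reverse complement, so both strands are covered, and both are cases of the general E-box CANNTG. Of 35116 windows in the table, 20.6% held the motif at least once, 0.635% at least 3 times and 0.0940% at least 5 times. The table has 20 windows for 5 of the 9 genes, and 2 of the 20 held the motif, both of ZEB1. One ZEB1 window held 3 matches, and the ZEB2 and TWIST2 windows held none. The TWIST2 window, like its 3′ UTR, is that of the protein-coding gene. Among epithelial genes known as targets of these repressors, 10 of 20 have a window, and 9 of their 13 windows (69.2%) held the motif, covering 8 genes. CRB3, a gene of the Crumbs polarity complex, and CLDN7, the gene of the tight junction protein claudin 7, each have a window with 5 matches. Of the list genes with the motif, CRB3, CLDN7, OCLN, INADL and RAB25 were called lower in the authors' deposited table. TJP3 was not called, CLDN3 had no adjusted p, and MIR200CHG matched no deposited row. CLDN4 and MIR205HG, without the motif in their windows, were called lower as well. The part of the motif in these falls was not tested. The 2 ZEB windows and those of CRB3 and CLDN7, which hold the most matches of that list, are printed with CACCTG or CAGGTG in capitals.
ZEB1, chr10:31318966-31319265, plus strand: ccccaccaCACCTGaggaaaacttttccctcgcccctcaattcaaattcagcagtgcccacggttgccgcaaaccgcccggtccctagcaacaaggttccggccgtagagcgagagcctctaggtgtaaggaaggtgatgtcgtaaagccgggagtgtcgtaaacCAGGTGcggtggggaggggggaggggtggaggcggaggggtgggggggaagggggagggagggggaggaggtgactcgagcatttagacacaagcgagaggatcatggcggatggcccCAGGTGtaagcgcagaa
ZEB2, chr2:144520070-144520369, minus strand: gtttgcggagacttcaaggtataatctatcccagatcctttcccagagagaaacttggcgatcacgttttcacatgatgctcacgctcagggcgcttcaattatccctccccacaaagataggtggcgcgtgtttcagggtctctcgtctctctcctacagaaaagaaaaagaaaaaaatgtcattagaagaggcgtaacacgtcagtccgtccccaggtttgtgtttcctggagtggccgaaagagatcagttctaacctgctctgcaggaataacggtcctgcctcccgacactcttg
CRB3, chr19:6464021-6464320, plus strand: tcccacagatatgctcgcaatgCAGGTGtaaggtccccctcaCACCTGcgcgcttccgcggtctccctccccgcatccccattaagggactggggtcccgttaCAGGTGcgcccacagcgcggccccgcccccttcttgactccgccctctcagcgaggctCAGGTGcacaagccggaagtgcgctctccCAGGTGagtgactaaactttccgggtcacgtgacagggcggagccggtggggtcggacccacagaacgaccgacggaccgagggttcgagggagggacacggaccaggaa
CLDN7, chr17:7262429-7262728, minus strand: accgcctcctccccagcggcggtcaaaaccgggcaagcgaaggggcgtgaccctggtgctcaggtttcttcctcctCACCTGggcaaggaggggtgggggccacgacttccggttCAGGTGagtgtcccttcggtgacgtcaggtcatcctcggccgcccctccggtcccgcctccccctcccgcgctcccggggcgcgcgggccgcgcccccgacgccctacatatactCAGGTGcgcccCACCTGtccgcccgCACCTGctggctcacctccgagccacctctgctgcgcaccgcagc

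The deposited group means were resolved into single libraries, numbered 1 to 3 by falling size factor separately in F1F2 and mCherry, so a number carries no pairing between groups. A normalized count is the recovered read count of a library divided by its size factor. The genes resolved took 17556767 to 19229929 reads per library. Library 3 of both groups stood apart in 9 cell cycle genes, whose summed normalized counts were 64240 in F1F2 library 3 and 58110 in mCherry library 3, against 13650 to 15260 in the other F1F2 libraries and 6142 to 14020 in the other mCherry libraries. The labelled mammary epithelial line was checked against 7 basal epithelial markers, which gave a mixed picture. KRT5 was abundant in both lines, with authors' means of 67351 in F1F2 and 48381 in mCherry cells, while 4 of the 7 fell. TP63, the basal lineage factor, averaged 25.6 normalized counts in F1F2 and 1765 in mCherry libraries, and the keratin gene KRT17 averaged 693 in F1F2 and 13306 in mCherry libraries. The other 2 were KRT14 and LAMB3, with log2 fold changes of -1.87 and -0.80 by the authors' deposited table. Summed counts of the 3 basal markers resolved in both groups, KRT14, TP63 and KRT17, were 699 to 1496 in F1F2 and 8746 to 21500 in mCherry libraries. That sum leaves out KRT5, KRT6A, ITGB4 and LAMB3, whose means were too high to resolve in at least 1 group. KRT6A had authors' means of 26668 in F1F2 and 12744 in mCherry cells (DESeq adjusted p = 0.0571, Tuxedo q = 0.00265). ITGB4 had authors' means of 24895 in F1F2 and 25684 in mCherry cells. Results below are given over all libraries and, where it matters, without library 3 of both groups.

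ZEB1, ZEB2 and the row named TWIST2 rose in F1F2 cells, and none of the 9 genes fell. By the authors' deposited DESeq table, with a threshold of 0.05 on the adjusted p, 3 of the 8 genes were higher, where 11.6% of all 19733 genes tested were higher and 12.0% lower. At an unadjusted p under 0.05 that table has 5 of the 8 higher and 0 lower, where 17.3% of all genes tested were higher and 17.7% lower. The authors' deposited Tuxedo table called 3 of 7 higher (background 6.93%) and 0 lower (background 10.0%) at a q under 0.05, and limma 3 of 7 higher (background 12.1%) and 0 lower (background 11.1%) at an adjusted p under 0.05. All 8 log2 fold changes in the authors' deposited DESeq table were above 0, with a median of 0.66, against a median of -0.04 over all genes with an adjusted p. In 4 genes (ZEB1, ZEB2, the TWIST2 row and TCF4) every F1F2 library lay above every mCherry library, as did 24.0% of the 15816 genes in the limma fit. In bulk RNA, a change in the number of cells that express a gene and a change in its RNA per cell cannot be told apart.

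**Figure D1:**
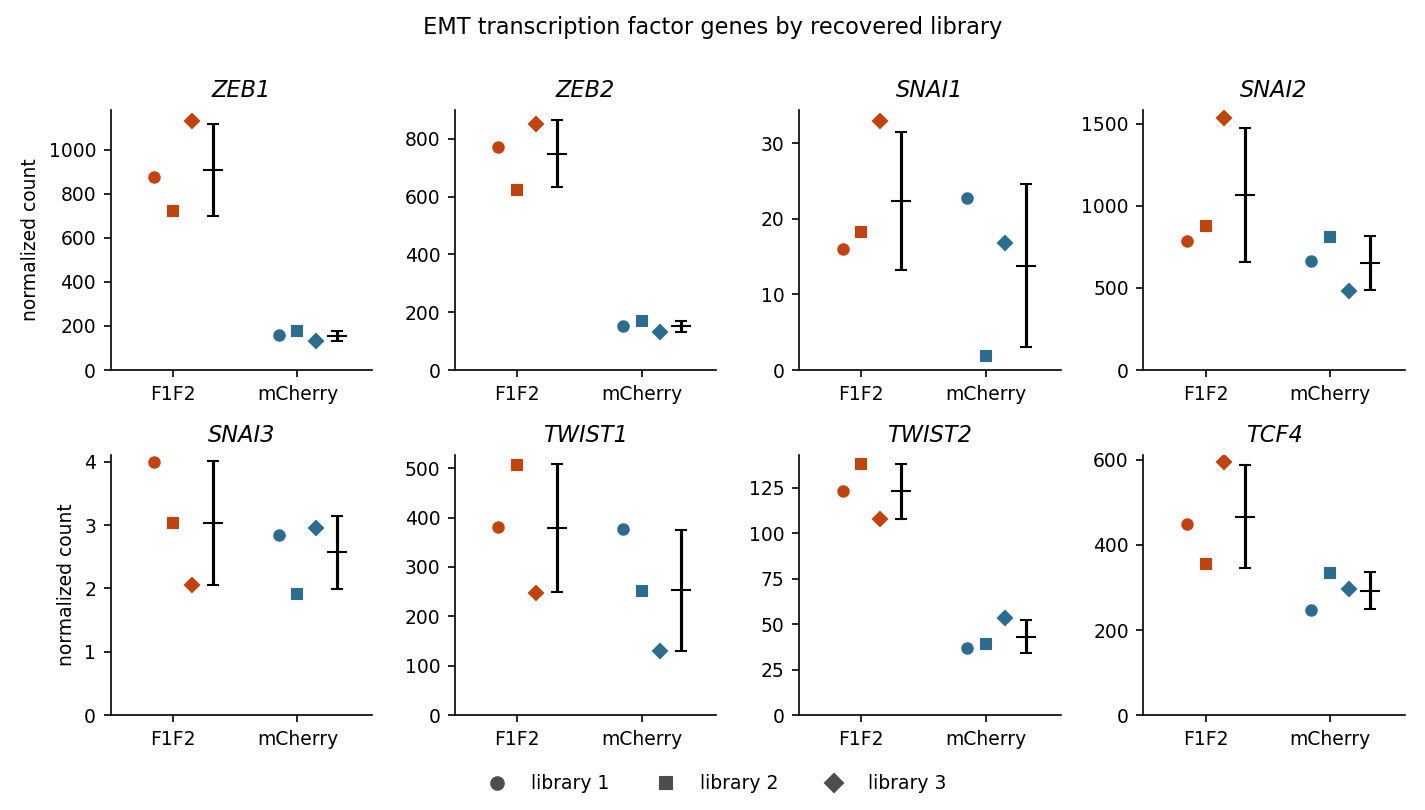
Normalized count (linear axis from 0, own scale per gene) of the 8 genes with reads, in each recovered library of F1F2 (left, red) and mCherry cells (right, blue). Marker shapes give libraries 1 to 3, and black bars give the mean and SD over 3 libraries; ZEB1, ZEB2, the TWIST2 row and TCF4 have all F1F2 points above all mCherry points.

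ZEB1 (ENSG00000148516, GRCh37 chr10:31596658-31818742) had 874, 720 and 1132 normalized counts in F1F2 libraries 1 to 3, against 157, 178 and 132 in mCherry libraries 1 to 3. The groups lay far apart, and even the lowest F1F2 library was several times the highest mCherry library. The means were 909 ± 208 in F1F2 and 156 ± 22.8 in mCherry libraries (SD, n = 3 each), a 5.83-fold difference. For ZEB1 the authors' deposited table gives a log2 fold change of 2.45 (adjusted p = 1.38e-16). Limma gave 2.52 with a 95% interval of 1.96 to 3.08 (adjusted p = 0.000986).

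ZEB2 (ENSG00000169554, GRCh37 chr2:145145568-145282147), the paralog of ZEB1, showed the same pattern over the 6 libraries. It had 771, 624 and 851 normalized counts in F1F2 libraries, against 152, 169 and 131 in mCherry libraries. Within F1F2, library 3 was the highest and library 2 the lowest for both ZEB genes, and within mCherry, library 2 was the highest and library 3 the lowest for both. The ZEB2 means were 749 ± 115 in F1F2 and 151 ± 19.0 in mCherry libraries (SD, n = 3 each), a 4.97-fold difference. Its log2 fold change in the authors' deposited table was 2.24 (adjusted p = 1.36e-16), and limma gave 2.30 with a 95% interval of 1.79 to 2.81 (adjusted p = 0.000978). The ratio of ZEB1 to ZEB2 reads within a library, which is not corrected for transcript length, was 1.13, 1.15 and 1.33 in F1F2 and 1.04, 1.05 and 1.01 in mCherry libraries. Without library 3 of both groups, a setting in which 23.3% of all genes were called higher, limma gave 2.24 for ZEB1 (adjusted p = 0.000104) and 2.11 for ZEB2 (adjusted p = 0.000162).

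The antisense genes of both ZEB genes are given the same deposited loci as the ZEB genes. The library kit was stranded, but the strand setting of the counting is not given. Whether reads from stretches where a gene and its antisense partner overlap were kept apart is therefore not known. ZEB1-AS1 (the row RP11-192P3.1), a noncoding RNA read from the opposite strand near the ZEB1 start, had 25.0, 21.3 and 25.7 normalized counts in F1F2 libraries, against 36.1, 30.6 and 32.6 in mCherry libraries. All 3 F1F2 values lay below all mCherry values, as they did for 21.1% of genes. The log2 fold change of ZEB1-AS1 in the authors' deposited table was -0.43 (adjusted p = 0.446). ZEB2-AS1 averaged 1.01 normalized counts in F1F2 and 0.658 in mCherry libraries, with no adjusted p. In all, 12 other rows share a locus with 1 of the 9 genes, antisense genes included. Of these, 5 had an adjusted p in the authors' deposited table, and the lowest was 0.404, for AC138028.1 beside SNAI3.

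The TWIST2 symbol in the tables stands on a short row, and the protein-coding gene stands under another name. The row named TWIST2 (ENSG00000235860) is typed as a processed transcript and covers 254 bases at GRCh37 chr2:239831979-239832232. The gene name table gives TWIST2 to ENSG00000233608, which the files name AC149644.1 and type as protein coding, at GRCh37 chr2:239756673-239795891. It ends 36087 bases before the short row. Both rows rose.

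The row named TWIST2 had 123, 138 and 108 normalized counts in F1F2 libraries, against 37.0, 39.2 and 53.3 in mCherry libraries. The groups did not overlap, and the 2 libraries nearest to each other were the third of each group. The means were 123 ± 14.9 in F1F2 and 43.2 ± 8.85 in mCherry libraries (SD, n = 3 each), a 2.85-fold difference. For this row the authors' deposited table gives a log2 fold change of 1.44 (adjusted p = 8.14e-05). Limma gave 1.5 with a 95% interval of 0.86 to 2.14 (adjusted p = 0.0115), and 1.75 without library 3 of both groups (adjusted p = 0.00167). Leaving out F1F2 library 1 or F1F2 library 2 ended the limma call, with log2 fold changes of 1.5 (adjusted p = 0.0615) and 1.41 (adjusted p = 0.0593). In those 2 settings limma called 341 and 390 of all genes higher, against 1912 with all libraries.

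AC149644.1 had 54.0, 55.7 and 79.2 normalized counts in F1F2 libraries, against 9.49, 5.74 and 27.6 in mCherry libraries. These groups did not overlap either, and mCherry library 3 was the highest of its group. The means were 63.0 ± 14.1 in F1F2 and 14.3 ± 11.7 in mCherry libraries (SD, n = 3 each), a 4.41-fold difference that rests on 44 reads in the mCherry group. AC149644.1 has a log2 fold change of 1.86 (adjusted p = 0.00212) in the authors' deposited table. Limma gave 2.32 with a 95% interval of 1.05 to 3.58 (adjusted p = 0.0234). Leaving out 1 library ended that call for every library other than mCherry library 3, with log2 fold changes of 1.86 to 2.41 and adjusted p-values of 0.0662 to 0.0787. In those 5 settings limma called between 341 and 1001 of all genes higher.

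TWIST1 (ENSG00000122691) encodes the other Twist protein, and its deposited locus is joined with a neighbour. It had 381, 507 and 248 normalized counts in F1F2 libraries, against 377, 251 and 130 in mCherry libraries. The groups overlapped, and library 3 was the lowest of each. The means were 378 ± 129 in F1F2 and 253 ± 123 in mCherry libraries (SD, n = 3 each). The TWIST1 log2 fold change in the authors' deposited table was 0.54 (adjusted p = 0.351), and limma gave 0.65 with a 95% interval of -0.34 to 1.64 (adjusted p = 0.284). With a term for library 3 in limma the adjusted p was 0.0390, and without library 3 of both groups the log2 fold change was 0.51 (adjusted p = 0.140). Leaving out 1 library at a time gave 0.24 (without mCherry library 3, adjusted p = 0.592) to 1.0 (without mCherry library 1, adjusted p = 0.154).

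SNAI2, which encodes SLUG and is a known factor of the basal mammary lineage, was the most abundant Snail gene by FPKM. SNAI2 (ENSG00000019549, GRCh37 chr8:49830249-49834299) had 787, 879 and 1533 normalized counts in F1F2 libraries, against 663, 811 and 479 in mCherry libraries. The lowest F1F2 library lay below the highest mCherry library, and library 3 was the highest F1F2 and the lowest mCherry library. The means were 1066 ± 407 in F1F2 and 651 ± 166 in mCherry libraries (SD, n = 3 each). By the authors' deposited table the SNAI2 log2 fold change was 0.67 (adjusted p = 0.136). Limma gave 0.68 with a 95% interval of -0.03 to 1.39 (adjusted p = 0.140), and 0.18 without library 3 of both groups (adjusted p = 0.476).

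SNAI1, which encodes SNAIL, was low in both lines. SNAI1 (ENSG00000124216, GRCh37 chr20:48599536-48605423) had 16.0, 18.2 and 32.9 normalized counts in F1F2 libraries, against 22.8, 1.91 and 16.8 in mCherry libraries. The groups overlapped, and mCherry library 2 lay far below the other 5 libraries. Its authors' deposited log2 fold change was 0.55 (adjusted p = 0.547), and the limma interval ran from -0.78 to 2.89. A difference of the size seen for ZEB1 lies within that interval. SNAI3 (ENSG00000185669) had 4, 3 and 2 reads in F1F2 libraries, against 3, 2 and 3 reads in mCherry libraries, so a difference was not detectable at this depth.

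TCF4 (ENSG00000196628, GRCh37 chr18:52889562-53303545), the E protein E2-2, had 449, 355 and 594 normalized counts in F1F2 libraries, against 247, 335 and 296 in mCherry libraries. All F1F2 values lay above all mCherry values, by the small gap between F1F2 library 2 and mCherry library 2. The means were 466 ± 121 in F1F2 and 293 ± 44.1 in mCherry libraries (SD, n = 3 each), a 1.59-fold difference. TCF4 has a log2 fold change of 0.64 in the authors' deposited DESeq table (adjusted p = 0.0863) and a q of 0.323 in the authors' deposited Tuxedo table. Limma gave 0.65 with a 95% interval of 0.06 to 1.24 (adjusted p = 0.0991), and the adjusted p was 0.0305 with a term for library 3. PRRX1 (ENSG00000116132, GRCh37 chr1:170632323-170708560) had 0 reads in all 6 libraries of 17556767 or more resolved reads each, which allows up to 3 reads per library. That limit covers counting error only.

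**Figure D2:**
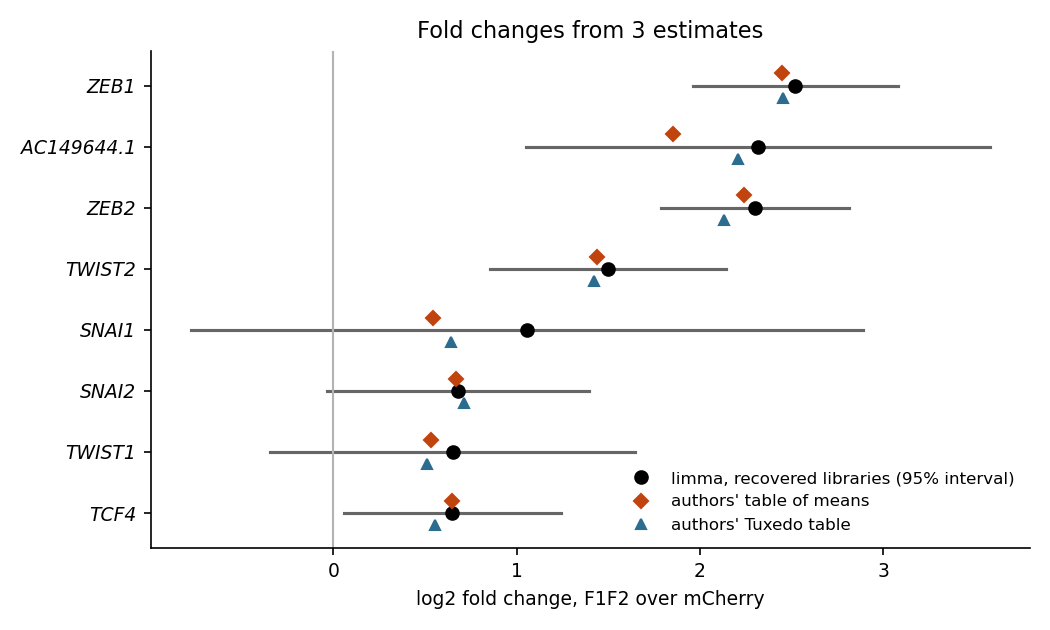
Log2 fold change, F1F2 over mCherry, of the 7 genes in the limma fit and of AC149644.1. Black points and lines give limma on the recovered libraries with its 95% interval, and red diamonds and blue triangles the authors' DESeq and Tuxedo tables; the intervals of ZEB1, ZEB2, both TWIST2 rows and TCF4 lie above 0, and those of SNAI1, SNAI2 and TWIST1 include 0.

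Levels between genes were compared in FPKM, which is per transcript length, from the authors' deposited Tuxedo table. In F1F2 cells the row named TWIST2 was at 71.7 FPKM, SNAI2 at 24.0, TWIST1 at 15.2, ZEB2 at 8.18 and ZEB1 at 7.72 FPKM. TCF4 followed at 3.33, SNAI1 at 0.568, SNAI3 at 0.0762 and PRRX1 at 0 FPKM. In mCherry cells the row named TWIST2 was at 26.8 FPKM, SNAI2 at 14.7, TWIST1 at 10.7, TCF4 at 2.27 and ZEB2 at 1.87 FPKM. ZEB1 was at 1.41 there, SNAI1 at 0.364, SNAI3 at 0.0728 and PRRX1 at 0 FPKM. The value of the TWIST2 row belongs to a transcript of 254 bases, and AC149644.1 was at 2.91 FPKM in F1F2 and 0.630 in mCherry cells.

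The order of levels was set against the spread of the recovered libraries, each scaled to its group's FPKM. In F1F2 cells the ranges of SNAI2 and TWIST1 overlapped, as did those of ZEB2 and ZEB1, and the other neighbours were separate. In mCherry cells the overlapping neighbours were SNAI2 and TWIST1, TCF4 and ZEB2, and SNAI1 and SNAI3. ZEB1 and ZEB2 thus stood above TCF4 in F1F2 cells, while in mCherry cells ZEB1 stood below TCF4 and ZEB2 overlapped it.

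Genes whose library pattern was most like each factor were found among 11704 genes with a mean of at least 100 in either group. Likeness was the root mean square difference of centred log2(normalized count + 1) over the 6 libraries, given as a description. ZEB2 was the 2nd nearest gene to ZEB1, at 0.134, and ZEB1 the 2nd nearest to ZEB2. BEND6, a BEN domain gene, was nearest to both, at 0.130 from ZEB1 and 0.061 from ZEB2. BEND6 averaged 134 normalized counts in F1F2 and 26.3 in mCherry libraries. The third nearest was SRGN, the serglycin gene, for ZEB1 and RNF157, a ring finger gene, for ZEB2.

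The other factors had other neighbours. The nearest to SNAI2 were HEG1, PHLDB1 and NEDD4, and TCF4 was the 23rd. TWIST1 lay nearest to AC124781.2, YPEL2 and ZFYVE28. For the row named TWIST2 they were WBP5, SAP18 and GBE1, and for TCF4 they were PIK3C2G, PLEKHH2 and IGF2BP3. Of the other 5 factors compared, the nearest to ZEB1 after ZEB2 was the TWIST2 row, in 186th place, and TWIST1 was in 3808th place.

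Over 3 lists of partners and modifiers, 6 of 39 genes rose (15.4%) and 1 fell (2.56%) in the authors' deposited table, beside 11.6% higher and 12.0% lower among all genes. Of 5 bHLH partners and ID inhibitors with an adjusted p, 1 rose and 0 fell in the authors' deposited table, with a median log2 fold change of 0.43. TCF12, the E protein HEB, averaged 2541 ± 262 normalized counts in F1F2 and 1643 ± 145 in mCherry libraries (SD, n = 3 each), and its log2 fold change was 0.62 (adjusted p = 0.0227) in the authors' deposited table. TCF3, the E protein E2A, averaged 1276 in F1F2 and 1255 in mCherry libraries. In this list the count at an unadjusted p under 0.05 was also 1 higher and 0 lower, limma called 1 and 0, and Tuxedo called 0 and 0. Leaving out 1 library gave 0 to 3 higher in limma, 3 without mCherry library 3 and 0 without any of the others. Without mCherry library 3, limma called 3469 of all 15859 genes higher, and in the other 5 settings between 341 and 1001 genes.

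Of 20 corepressors and chromatin partners, which the ZEB and SNAI proteins recruit to silence genes, 2 rose and 1 fell, with a median log2 fold change of 0.12 in the authors' deposited table, both shares under those of all genes. Limma called 0 higher and 1 lower, and Tuxedo 0 and 0, while limma called 7 higher without library 3 of both groups and 7 higher with a term for it, settings in which 23.3% and 24.4% of all genes were called higher. KAT2B, the acetyltransferase PCAF, averaged 697 normalized counts in F1F2 and 409 in mCherry libraries, and WTIP, a LIM protein of the AJUBA family, 122 in F1F2 and 67.1 in mCherry libraries. LIMD1, of the same LIM family, averaged 812 in F1F2 and 1286 in mCherry libraries. Their log2 fold changes in the authors' deposited table were 0.74 (adjusted p = 0.0361), 0.82 (adjusted p = 0.0467) and -0.65 (adjusted p = 0.0229). Limma kept the call of LIMD1 (adjusted p = 0.0328) and not those of KAT2B (adjusted p = 0.0503) and WTIP (adjusted p = 0.0680).

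Of 14 genes for turnover and modification of SNAI and ZEB proteins, 3 rose and 0 fell in the authors' deposited table, beside 11.6% and 12.0% of all genes. The median log2 fold change was 0.19. At an unadjusted p under 0.05 there were 3 higher and 2 lower, beside 17.3% and 17.7% of all genes. Limma called 3 and 0 (background 12.1% and 11.1%), and Tuxedo called 2 and 0 (background 6.93% and 10.0%). Without F1F2 library 1, and without F1F2 library 2, limma called 0 of them higher, where it called 341 and 390 of all genes higher. PRKD1, a kinase that phosphorylates SNAI1, averaged 826 normalized counts in F1F2 and 312 in mCherry libraries (log2 fold change 1.30 and adjusted p = 0.00727 in the authors' deposited table). LATS2, a Hippo pathway kinase, averaged 1038 in F1F2 and 557 in mCherry libraries. BTRC, the F-box protein of the ligase that marks SNAI1 for degradation, averaged 979 in F1F2 and 546 in mCherry libraries. The adjusted p-values in the authors' deposited table were 0.000276 for LATS2 and 0.000637 for BTRC.

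Of 13 other EMT regulators, 5 rose and 3 fell in the authors' deposited table, beside 11.6% and 12.0% of all genes, with a median log2 fold change of 0.24. At an adjusted p under 0.01 that table has 2 higher and 1 lower, and limma called 4 higher and 2 lower (background 12.1% and 11.1%). Leaving out 1 library gave 2 higher in limma for every library other than mCherry library 3, and 0 or 1 lower. In those 5 settings limma called between 341 and 1001 of all genes higher, and between 634 and 1221 lower. FOXC2, a forkhead factor, had 283, 218 and 187 normalized counts in F1F2 libraries, against 75.0, 37.3 and 54.3 in mCherry libraries. TBX3, a T-box factor, had 1805, 1527 and 1590 in F1F2 libraries, against 531, 534 and 416 in mCherry libraries. Neither gene's groups overlapped, and the log2 fold changes in the authors' deposited table were 1.93 for FOXC2 (adjusted p = 5.28e-07) and 1.69 for TBX3 (adjusted p = 1.03e-11). RUNX2, a Runt-domain factor, rose by a log2 fold change of 1.12 in the authors' deposited table. SOX9, a factor of stem and progenitor cells, had 24.0, 33.4 and 27.8 in F1F2 libraries, against 166, 74.6 and 560 in mCherry libraries, and fell by 2.72 on the log2 scale in the authors' deposited table (adjusted p = 9.21e-06). KLF8 had a log2 fold change of -1.14 and SOX4 one of -0.72 in the authors' deposited table, both falls, and the limma adjusted p of KLF8 was 0.0648.

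The epithelial genes known as targets of ZEB or SNAI repressors were lower in F1F2 cells. Of the 18 with an adjusted p in the authors' deposited table, 0 rose and 15 fell, beside 12.0% lower among all genes, and the median log2 fold change was -3.05. At an unadjusted p under 0.05 there were 0 higher and 16 lower, limma called 0 and 14 of 16, and Tuxedo called 0 and 12 of 17. ESRP1, an epithelial splicing regulator, had 13.0, 13.2 and 10.3 normalized counts in F1F2 libraries, against 2869, 2619 and 3591 in mCherry libraries. CDH1 had 86.0, 111 and 39.1 in F1F2 libraries, against 15291, 16901 and 20532 in mCherry libraries. EPCAM and OCLN, the genes of an adhesion protein and of the tight junction protein occludin, completed the 4 largest falls, at -5.63 for EPCAM and -4.85 for OCLN in log2 fold change in the authors' deposited table.

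CRB3 and CLDN7, whose promoter windows are printed above, fell as well. CRB3 had 4.0, 11.1 and 4.11 normalized counts in F1F2 libraries, against 251, 82.2 and 202 in mCherry libraries. CLDN7 had 632, 761 and 424 in F1F2 libraries, against 6226, 3848 and 7511 in mCherry libraries. The groups of both genes were separate, with log2 fold changes of -4.13 for CRB3 and -3.10 for CLDN7 in the authors' deposited table. The host transcript of miR-205, MIR205HG, had 2148, 7638 and 972 normalized counts in F1F2 libraries, against an authors' mean of 52989 in mCherry cells, whose libraries were not resolved. The F1F2 mean was 3586, and 1560 without F1F2 library 2. Its log2 fold change in the authors' deposited table was -2.60 (adjusted p = 0.00166), nearer to 0 than the log2 ratio of the 2 means, -3.89. Such a gap was not particular to MIR205HG. The CDH1 means differed 223-fold, and its log2 fold change of -7.31 was also nearer to 0 than that ratio gives. The deposited log2 fold changes thus need not equal the log2 ratio of the means, and the cause was not tested. The 3 genes that did not pass had log2 fold changes of -0.19 (GRHL2), -0.42 (PKP3) and -1.04 (TJP3) in the authors' deposited table.

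Of 10 mesenchymal readout genes with an adjusted p in the authors' deposited table, 6 rose and 2 fell, with a median log2 fold change of 1.51. Among all genes 11.6% rose and 12.0% fell. The rises with the largest log2 fold changes in the authors' deposited table were FN1 (fibronectin) at 4.10, MMP2 (a gelatinase) at 3.14, S100A4 (a calcium-binding protein) at 2.05 and VIM (vimentin) at 1.82. SPARC, a matrix protein gene, averaged 2465 normalized counts in F1F2 and 4707 in mCherry libraries. MMP9, the other gelatinase gene, had 0 reads in all F1F2 libraries and averaged 5.85 normalized counts in mCherry libraries. Limma called 4 rises and 0 falls among 8 genes of this list, beside 12.1% higher and 11.1% lower among all genes. FN1 and VIM were not in that fit because their reads were not resolved.

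**Figure D3:**
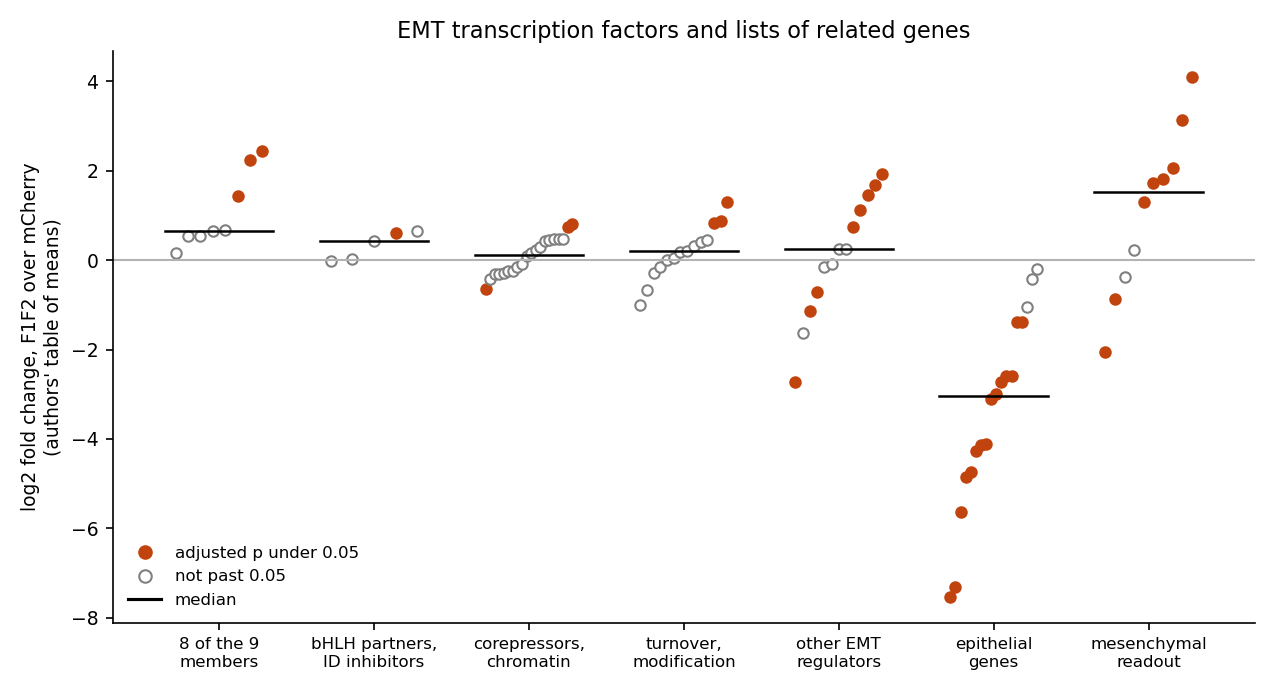
Log2 fold change, F1F2 over mCherry, in the authors' deposited DESeq table for 8 of the 9 EMT factors and for 6 lists of related genes. Each point is a gene with an adjusted p, filled where it is under 0.05, and bars are list medians, which run from -3.05 for the epithelial genes to 1.51 for the mesenchymal readout genes.

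Markers of other cells were measured beside these groups. Summed normalized counts of 8 fibroblast markers were 494 to 1939 in F1F2 and 553 to 1184 in mCherry libraries. FAP alone gave 1733 of the 1939 in F1F2 library 3, and THY1 had 0 reads in all 6 libraries. DCN, the decorin gene, was not resolved and had authors' means of 42467 in F1F2 and 4659 in mCherry cells. Of 6 fibroblast markers with an adjusted p in the authors' deposited table, 3 rose (DCN, LUM and PDGFRB) and 1 fell (COL1A1). Among all genes 11.6% rose and 12.0% fell. LUM averaged 58.3 normalized counts in F1F2 and 11.6 in mCherry libraries, and PDGFRB 74.4 in F1F2 and 24.4 in mCherry libraries. COL1A1 averaged 87.7 in F1F2 and 268 in mCherry libraries. Summed counts of 6 immune markers were 174 to 254 in F1F2 and 698 to 1896 in mCherry libraries, with the T cell marker CD3E at 0 in all 6. Summed counts of 5 endothelial markers were 417 to 800 in F1F2 and 272 to 940 in mCherry libraries. Of the 7 basal epithelial markers described above, 0 rose and 4 fell in the authors' deposited table, beside 11.6% and 12.0% of all genes. At an unadjusted p under 0.05 there were 1 higher and 4 lower, beside 17.3% and 17.7% of all genes. The part of these markers in the results was not tested.

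The calls of ZEB1 and ZEB2 held under each of 17 alternatives, with limma and Tuxedo log2 fold changes of 2.24 to 2.68 for ZEB1 and 2.11 to 2.43 for ZEB2. The highest adjusted p among these alternatives was 0.00823 for ZEB1 and 0.00950 for ZEB2. For SNAI1 and SNAI2 no alternative gave an adjusted p under 0.05, with lowest values of 0.220 and 0.0868. TWIST1 and TCF4 passed only with a term for library 3, a setting in which 24.4% of all genes were called higher.

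**Figure D4:**
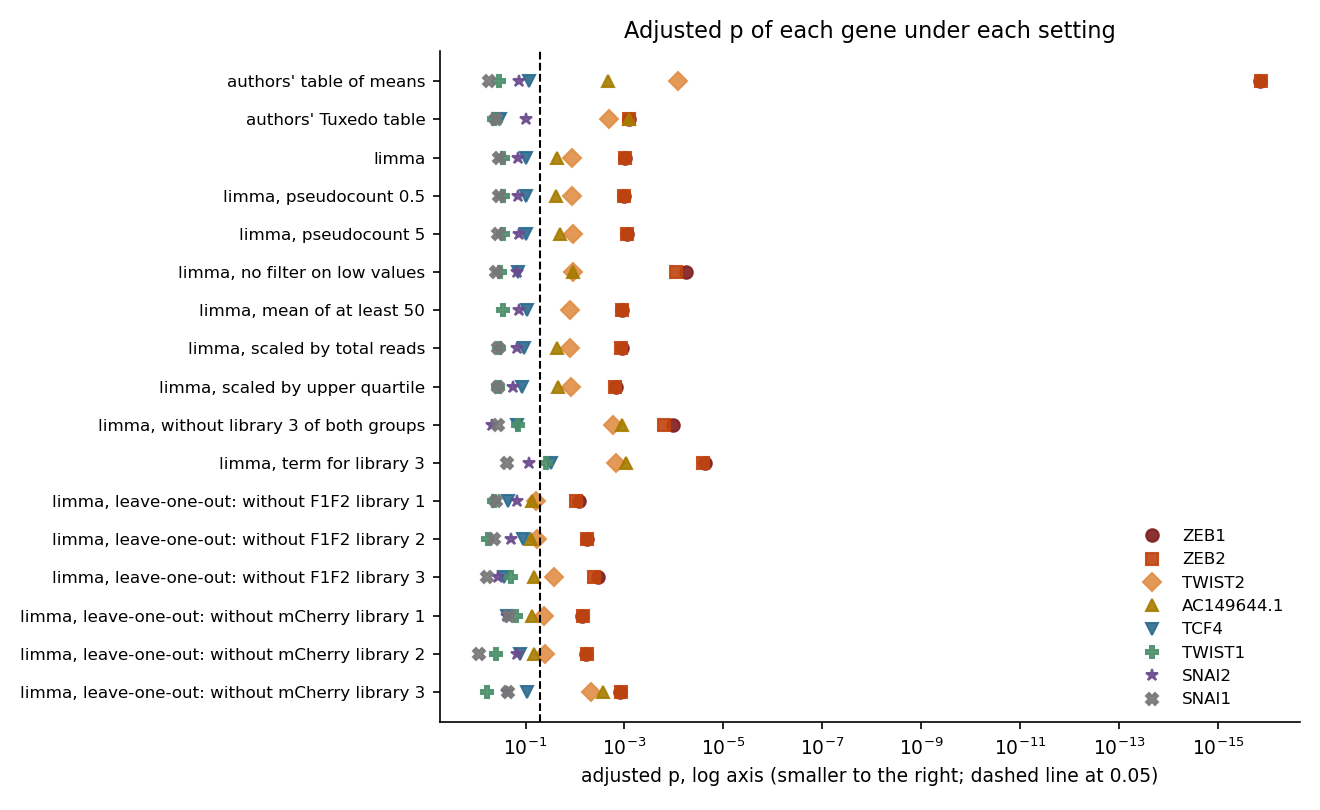
Adjusted p (log axis, smaller to the right; dashed line at 0.05) of ZEB1, ZEB2, the TWIST2 row, AC149644.1, TCF4, TWIST1, SNAI2 and SNAI1 under each setting, 1 row per setting. ZEB1 and ZEB2 lie right of the line in every row, and SNAI1 and SNAI2 lie left of it in every row where they have a value.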

How the data were processed

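Polyadenylated RNA of 6 samples was sequenced with a stranded TruSeq kit on a HiSeq 4000, per the labels' protocols. The submitters' processing notes name build GRCh37, bcl2fastq, alignment with HISAT2 2.1.0, HTSeq 0.9.1 and the count model DESeq2 1.18.1. No annotation release or strand setting is named in the sources used here. Per the file headers, the first table that the authors deposited holds the signal of each group (mean normalized counts), a log2 fold change and p-values. The second deposited table, from the Tuxedo pipeline, holds the authors' FPKM per group, log2 fold change, test score, p-values and q-values. The test score was not used. Locus starts there count from 0 and are printed counted from 1. The loci printed for ZEB1, ZEB2 and TCF4 are also given to other rows, so they may be wider than the gene.

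Whole reads were recovered from the 15 significant digits of each mean: 99.45% of F1F2 and 99.52% of mCherry means above 0 had 1 solution, while 0 and 1 of 2000 altered means had one. Means above 18000 were not searched, and 2 F1F2 means under that limit had no single solution. In all, 195 genes lack library values in at least 1 group; the unresolved means hold 24.7% of the normalized counts of each group. Size factors recomputed from the reads differed by at most 0.078%. In 47 group means of at least 500 reads, none of them of the 9 genes, a library came out at 0. The libraries carry no replicate numbers. The labels do not say whether the 3 samples per group are separate cultures, and the spread behind the p-values may be technical.

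The authors' adjusted p under 0.05 was the main test. Limma 3.58.1 (R 4.3.3, trend, robust, Benjamini-Hochberg adjustment) ran on log2(normalized count + 1) of 15816 genes with a mean of at least 10. On data simulated for this comparison over 15663 genes it recovered 67% of 2-fold and 97% of 4-fold changes, and 6.29% of its calls were false. The simulation gave all genes a common dispersion of 0.037, changed few genes and had no library 3 effect. Its shares may therefore not hold for the real libraries. Tables and figures used matplotlib 3.10.9, numba 0.67.0, pandas 2.3.3, numpy 2.4.6, scipy 1.17.1 and Python 3.11.15. The members and lists were chosen with earlier results of these data known. All 9 genes are named, and from each list up to 4 genes per direction with the largest log2 fold changes past the threshold. Also named are the epithelial genes with a promoter window and those a count of 5 or fewer refers to. The expression of MIR200CHG was not analysed because no deposited row matched it, and its promoter window was part of the motif search. Some genes of the lists are not reported here by name. Alternatives were the Tuxedo table, the threshold, limma with other pseudocounts (0.5, 5), filters (none, 50) and scalings, single libraries left out, library 3 left out or fitted, and AC149644.1 as TWIST2, the last chosen after seeing the data. The library 3 settings could be defined only once the libraries had been recovered, because the library numbers come from that step.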

Additional observations from a re-analysis of the deposited data

How the results depend on the processing

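Of the 9 genes, 3 were called higher and 0 lower. Over 18 alternative settings the count called higher was 5 with a term for library 3 of both groups in limma, because TWIST1 (adjusted p = 0.0390) and TCF4 (adjusted p = 0.0305) passed as well; the cause was not tested. Leaving out 1 library gave 2 to 3 called higher and 0 called lower, with 2 when F1F2 library 1 or F1F2 library 2 was left out, where the row named TWIST2 did not pass. The count called lower was 0 under each setting run. Log2 fold changes kept their direction in each alternative run for the 8 genes with a value and AC149644.1: 127 values kept their side of the threshold, 2 passed it and 7 fell short of it. Of the counts in the lists, 131 stayed within 1.5 times of the main count and 73 did not; the epithelial list gave 11 to 15 falls. No paired analysis was possible because the recovered libraries carry no replicate numbers. Depth limits SNAI3, with 9 reads in F1F2 and 8 in mCherry libraries, and SNAI1, with 66 reads in F1F2 and 43 in mCherry libraries.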
